A study of Mus musculus with 49 samples.

Results

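Of the integrated reporters (IRs) in a pool of mouse embryonic stem (mES) cells, 624 had another IR within 100 kb on the same chromosome. They were chosen by position and depth alone, as IRs whose entry with most reads in the sgRNA3 data held 10 reads or more and that lay 1 to 100000 bp from another such IR. The sgRNA3 data hold 3238 IRs, of which 2507 had 10 reads or more and 1883 of these had no neighbour within that distance. The study asked how the guide RNA and the place in the genome relate to Cas9 mutations at identical reporter genes. Its cells were EBRTcH3 mES cells that express the tetracycline-controlled transactivator from the ROSA26 locus, with barcoded EGFP reporters brought in by piggyBac and driven by 1 of 7 promoters (CMV, cMyc, Hoxb1, Nanog, Oct4, p53 or PGK). Reporter expression was measured before Cas9, with 2 cDNA replicates and 2 genomic DNA (gDNA) replicates. The cells then received Cas9 with sgRNA3, with sgRNA2, or with sgRNA2 and a single-stranded oligonucleotide (ssODN) as repair template, each sequenced in 12 libraries.

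All of these groups share the transactivator, the reporters and the culture. In 4 additional experiments sgRNA2 was given with the ssODN, labelled with 1 µM in additional experiment 3 and 8 µM in additional experiment 4. Some 500 founding cells gave rise to the pool. With a mean of about 25 integrations in each, many IRs share a founder cell and its descendants. The libraries of an assay are merged, and there is no spread between replicates for mutation, insertion or knock-in. The tables hold 769666 reads for sgRNA3, 2021831 for sgRNA2 and 2224925 for sgRNA2+ssODN. The additional experiments 1 to 4 hold 947244, 1439258, 2597271 and 2591465 reads. Expression rests on 1847222 and 1897359 cDNA counts and on 2648119 and 2704892 gDNA counts in replicates 1 and 2.

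In TRIP, where many reporters are integrated and read in parallel, each reporter carries its own barcode, so that transcripts and mutations can be assigned to a site of integration. The piggyBac transposase inserts its cargo at the tetranucleotide TTAA, and expression of an inserted gene is known to vary with the chromatin around it, which is called a position effect. Cas9 cuts DNA next to a PAM, and repair of the break by end joining can leave deletions or insertions, while repair from a template can write a chosen sequence into the site, here called a knock-in.

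The 3 nearest pairs are shown first, since they put different reporters into nearly the same place. The windows are on the plus strand of mm9 with 40 bases on either side, and capitals mark the 4 bases at each mapped site. Pair 1 lies at chr10:84427930-84428061, pair 2 at chr6:100334474-100334617 and pair 3 at chr4:125287227-125287410. Both sites of pairs 1 and 2 are TTAA, and the site of the Oct4 IR of pair 3 is not TTAA in the reference.
Pair 1: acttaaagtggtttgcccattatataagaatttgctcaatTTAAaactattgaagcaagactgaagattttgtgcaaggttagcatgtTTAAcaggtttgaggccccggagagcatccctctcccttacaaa
Pair 2: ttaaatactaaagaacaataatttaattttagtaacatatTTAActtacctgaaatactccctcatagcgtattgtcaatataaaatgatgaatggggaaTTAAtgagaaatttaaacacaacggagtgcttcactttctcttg
Pair 3: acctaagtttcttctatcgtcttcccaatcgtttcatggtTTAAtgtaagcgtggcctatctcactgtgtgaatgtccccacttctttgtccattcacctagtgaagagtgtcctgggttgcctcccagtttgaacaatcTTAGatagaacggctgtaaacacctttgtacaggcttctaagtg

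The barcodes of these IRs show that the neighbours are separate reporters and not misread copies of each other. They differ by 10 edits in pair 1, 14 in pair 2 and 12 in pair 3. Over all 335 pairs the fewest edits were 7.
Pair 1, Nanog IR: ctgcaatcatcaatgcgc
Pair 1, CMV IR: tcgattgcaccacattag
Pair 2, Nanog IR at the lower position: tacatactcagccccaa
Pair 2, Nanog IR at the higher position: aggtcgtttacaatgacc
Pair 3, Hoxb1 IR: cataacacattatctaac
Pair 3, Oct4 IR: acagttaattccagagtc

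Every IR holds the same EGFP target, so that neighbours differ in barcode and site, and in many pairs in promoter, but not in what the guides read. The guides are 20 bases long, and capitals mark the 3 bases between the usual Cas9 cut and the PAM.
sgRNA2: cgccgggatcactctcgGCA
sgRNA3: agtgtcacctaaatcgtATG

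Windows of 44 bases around further named IRs follow, with the TTAA of the insertion in capitals. Those at chr3:9367375-9367418 and chr3:9400269-9400312 belong to the pair with the largest difference in sgRNA3 mutation among 4 deeply sequenced pairs. These 4 had 100 reads or more for both IRs in all 3 assays. Those at chr14:27385204-27385247 and chr14:27398680-27398723 belong to the Hoxb1 pair with the largest difference in expression.
Chromosome 3, Hoxb1 IR: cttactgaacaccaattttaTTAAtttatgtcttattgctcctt
Chromosome 3, Nanog IR: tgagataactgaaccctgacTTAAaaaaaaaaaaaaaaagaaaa
Chromosome 14, Hoxb1 IR with low expression: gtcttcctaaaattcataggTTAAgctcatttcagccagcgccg
Chromosome 14, Hoxb1 IR with high expression: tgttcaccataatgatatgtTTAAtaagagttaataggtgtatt

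The 624 IRs lay on 20 chromosomes, and 601 of them (96.3%) were mapped at a TTAA. In the GENCODE annotation of mm9, 332 were inside a gene (53.2%), 24 in an exon and 308 in an intron, against 48.6% inside a gene for the 1883 IRs without a neighbour. The median distance to a transcription start site was 13887.5 bp, and 18417 bp for IRs without a neighbour. Hoxb1 was the most frequent promoter with 223 IRs and PGK the rarest with 33, and these were 35.7% and 5.29% of the IRs with a neighbour. Among IRs without a neighbour the same promoters made up 35.7% and 3.93%. Both mapped ends lay within 5 kb of each other at 553 of the 624 IRs and apart at 71.

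Each IR was paired with its nearest neighbour, which gave 335 pairs, 289 of them nearest to each other in both directions. The median distance in a pair was 41476 bp (quartiles 15693.5 and 65467 bp) and the range 48 to 99467 bp. Classes of distance, here and below, take all 381 pairs of these IRs up to 100 kb apart, nearest neighbours or not, and are therefore not parts of the 335. Both IRs had the same promoter in 73 pairs (21.8%), close to the 20.1% among pairs on different chromosomes, and the same orientation in 177 pairs (52.8%). Linked by gaps of up to 100 kb, the IRs formed 283 clusters, of which 238 held 2 IRs, 37 held 3, 3 held 4 and 5 held 5. All 182829 pairs of these IRs on different chromosomes served as the reference, in place of randomly shuffled pairs.

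Neighbours were alike in expression and hardly alike in mutation. Expression is the log2 ratio of cDNA to gDNA counts after libraries were scaled to the same total, with 1 count added. Its median over the 624 IRs was -1.52 (quartiles -4.69 and 0.88), against -3.70 for IRs without a neighbour. At 36 IRs with a neighbour no cDNA count was read (5.77%), against 13.1% of IRs without a neighbour.

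The intraclass correlation, which correlates the values of both IRs of a pair entered in both orders, was 0.509 for expression over 335 pairs (95% interval 0.425 to 0.584). It was -0.00423 over pairs on different chromosomes. The median difference between neighbours was 2.13 on the log2 scale (95% interval 1.82 to 2.50), and 3.55 between IRs on different chromosomes. Both neighbours lay on the same side of the median expression in 237 pairs (70.7%), against 49.8% on different chromosomes. Likeness in expression was thus partial, and large differences inside a pair were common. The points of these correlations share libraries, and an IR can stand in more than 1 pair, so that the intervals describe the spread over pairs and no test was made.

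**Figure D1:**
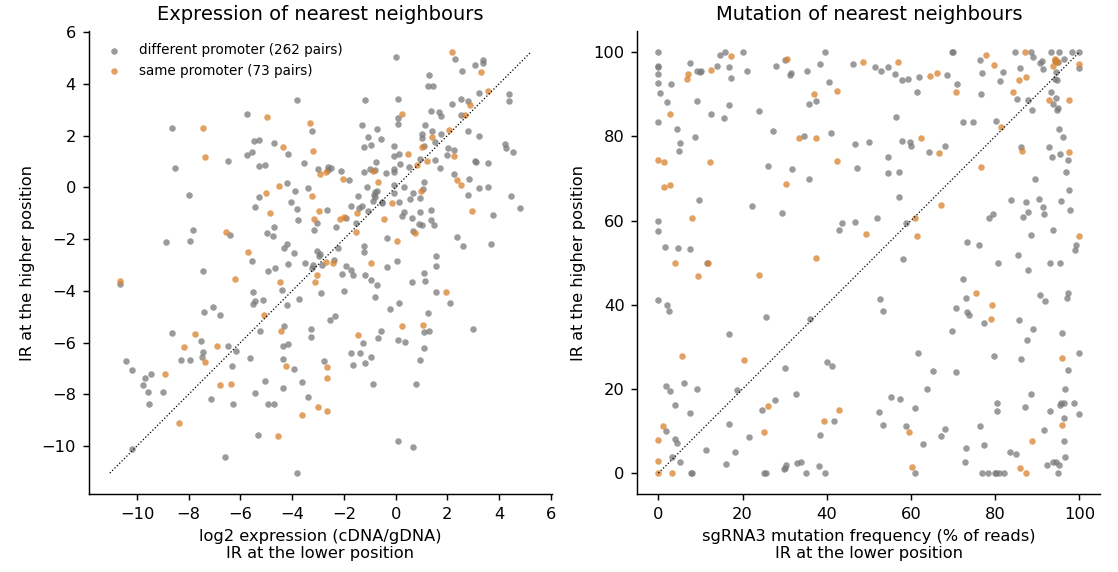
Values of both IRs of each nearest-neighbour pair, with log2 expression on the left and the percentage of mutated reads with sgRNA3 on the right, and the IR at the lower position on the horizontal axis. Each point is a pair, orange where both IRs have the same promoter (73 pairs) and grey where they differ (262 pairs), and the dotted line marks equal values. Expression follows the line loosely, with an intraclass correlation of 0.509, and mutation fills the whole square, with 0.0351.

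The plot of both IRs of each pair shows this contrast without any summary, since a neighbour's expression narrows the range of its partner and a neighbour's mutation frequency does not. The depth behind the pairs did not run parallel within them. The intraclass correlation between neighbours was -0.085 for log2 gDNA counts and -0.0575 for log2 reads with sgRNA3.

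Likeness in expression fell with distance over all 381 pairs. Up to 5 kb apart it was 0.841 (95% interval 0.700 to 0.918, 32 pairs) with a median difference of 1.11. From 5 to 20 kb it was 0.607 (0.441 to 0.732, 74 pairs) with 1.51, and from 20 to 50 kb 0.578 (0.439 to 0.689, 111 pairs) with 2.55. From 50 to 100 kb it was 0.279 (0.133 to 0.414, 164 pairs) with 2.59. The nearest IRs were therefore the most alike, and the interval from 50 to 100 kb lay below those of the shorter distances. Farther out the same IRs gave 0.173 from 100 kb to 1 Mb (0.0347 to 0.305, 197 pairs), 0.0151 from 1 to 10 Mb (1363 pairs) and 0.0204 beyond 10 Mb (9606 pairs).

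At the border of the choice, the 38 pairs over 90 to 100 kb apart had an intraclass correlation in expression of 0.0329 (95% interval -0.284 to 0.343) and a median difference of 2.75. The 13 pairs over 100 to 110 kb apart had 0.296 (-0.267 to 0.708) and 2.45. With sgRNA3 the median difference in mutation frequency was 39.5 points inside the border and 30.1 points outside it. The longest distance inside was 99467 bp and the shortest outside 100171 bp, and the intervals on both sides overlap.

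**Figure D2:**
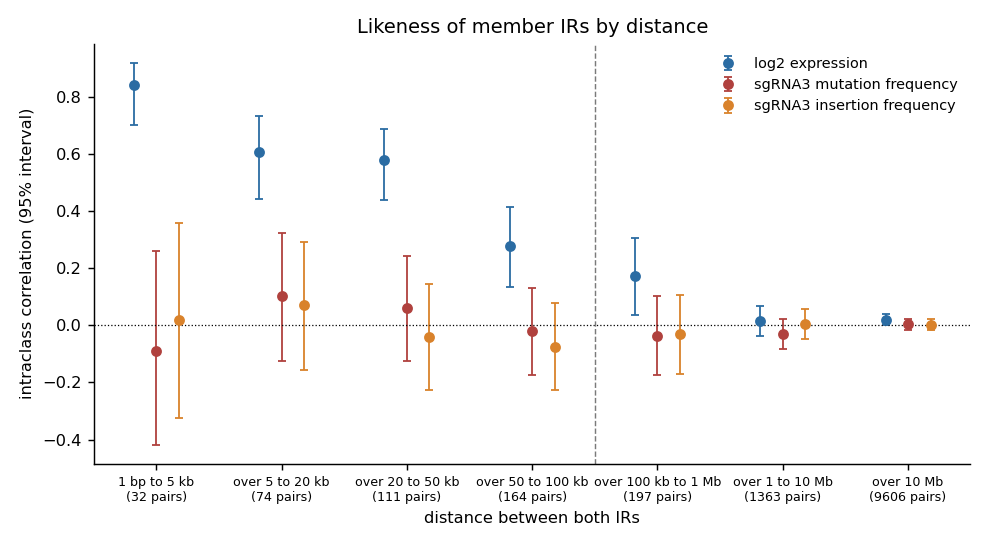
Intraclass correlation of all pairs of these IRs by distance on the chromosome, for log2 expression (blue), sgRNA3 mutation frequency (red) and sgRNA3 insertion frequency (orange). Bars are 95% intervals over pairs, the numbers of pairs stand under each distance, and the dashed line marks 100 kb. Expression falls from 0.841 up to 5 kb to 0.173 from 100 kb to 1 Mb, while the intervals for mutation and insertion hold 0 at all distances.

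The plot of likeness by distance shows a graded fall for expression and values around 0 for mutation and insertion at each distance. The intervals are widest up to 5 kb, where the pairs are fewest.

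As a whole, neighbours with the same promoter were about as alike in expression as neighbours with different promoters. Most pairs with the same promoter were Hoxb1 pairs, so that this contrast rests largely on 1 promoter. With promoter means subtracted, the intraclass correlation over all 335 pairs was 0.579 (95% interval 0.503 to 0.646), against 0.509 without. The median difference was then 2.02, against 2.13. Pairs with the same promoter had an intraclass correlation of 0.522 (95% interval 0.334 to 0.670, 73 pairs) and a median difference of 2.06, and pairs with different promoters 0.505 (0.409 to 0.589, 262 pairs) and 2.21. Among all 381 pairs, 12 pairs with the same promoter up to 5 kb apart had a median difference of 1.11 and 20 pairs with different promoters 1.13. From 5 to 20 kb the values were 0.84 for 12 pairs with the same promoter and 1.92 for 62 pairs with different promoters. From 20 to 50 kb the order was the other way, with 3.31 for 21 pairs with the same promoter and 2.46 for 90 with different promoters. From 50 to 100 kb they were 2.11 for 34 pairs and 2.64 for 130 pairs. In each of these distance classes the 95% intervals of the median overlapped between same and different promoters.

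Among pairs with the same promoter, only Hoxb1 with 45 pairs and CMV with 10 gave more than 5. The median difference was 2.69 between Hoxb1 neighbours (95% interval 1.96 to 4.23) and 0.80 between CMV neighbours (0.29 to 2.46). The intraclass correlation was 0.386 for Hoxb1 (0.109 to 0.607) and 0.759 for CMV (0.311 to 0.931). CMV neighbours were thus nearer to each other in value, with intervals that overlap.

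Expression was next compared between each IR and a nearest neighbour with another promoter. PGK, the promoter of a housekeeping enzyme of glycolysis, was higher than its neighbour in 32 of 32 pairs, with a median log2 difference of 4.49 (95% interval 2.52 to 6.59). Against IRs with other promoters on different chromosomes, PGK was higher in 86.6% of pairs. Hoxb1, a promoter of a retinoic acid-inducible developmental gene, was higher in 47 of 148 pairs, with a median of -1.11 (-2.20 to -0.60), and in 39.3% of pairs on different chromosomes. Oct4, from a pluripotency factor, was higher in 21 of 62 pairs, with a median of -2.02 (-2.52 to -0.75), and in 38.7% on different chromosomes. PGK therefore stood above and Hoxb1 and Oct4 below their neighbours, with intervals that leave out 0. Against other promoters on different chromosomes the medians were 4.08 for PGK, -1.40 for Hoxb1 and -1.47 for Oct4. These lie inside the intervals of the neighbours, so that for these promoters the differences between neighbours were not set apart from those on different chromosomes.

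For the other promoters the interval of the median difference held 0. CMV was higher than its neighbour in 45 of 74 pairs, with a median of 0.60 (-0.12 to 1.26), and in 48.7% of pairs on different chromosomes, where its median was -0.17. Nanog was higher in 43 of 82 pairs, with a median of 0.13 (-0.71 to 0.79), and in 60.3% of pairs on different chromosomes, where its median was 1.34. For cMyc the values were 28 of 48 pairs and 0.85 (-0.36 to 1.80), and 51.7% and 0.20 on different chromosomes. For p53 they were 46 of 78 pairs and 1.04 (-0.29 to 1.82), and 54.8% and 0.56 on different chromosomes. The median on different chromosomes lay above the interval of the neighbours for Nanog and slightly below it for CMV. For cMyc and p53 it lay inside. Beside a neighbour, Nanog thus stood lower and CMV higher than against IRs on different chromosomes.

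**Figure D3:**
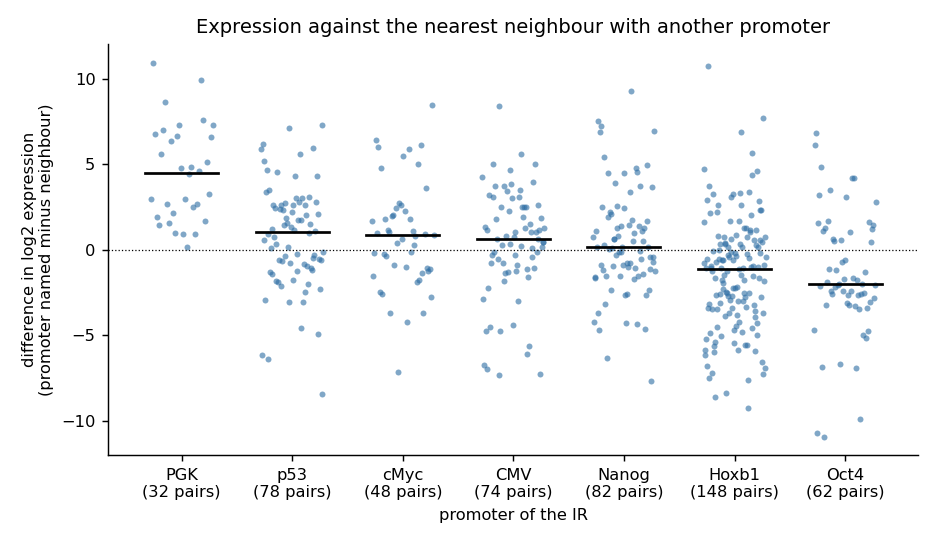
Difference in log2 expression between an IR and its nearest neighbour with another promoter, by the promoter of the IR. Each point is a pair, which stands once under each of its 2 promoters, and the black line is the median. All 32 differences for PGK lie above 0, and the medians for Hoxb1 and Oct4 are -1.11 and -2.02.

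The plot of differences by promoter shows how far single pairs depart from these medians, with differences on both sides of 0 for each promoter but PGK. Whether the IRs of a pair were in the same clone is not recorded.

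Likeness in expression was also described by orientation and by genes. Neighbours in the same orientation had an intraclass correlation of 0.599 (95% interval 0.495 to 0.685, 177 pairs) and those in opposite orientation 0.387 (0.246 to 0.512, 158 pairs). Inside the same gene it was 0.544 (0.373 to 0.679, 83 pairs) with a median difference of 1.62, and in different genes 0.345 (0.0623 to 0.576, 45 pairs) with 2.76. Pairs with both IRs outside genes had 0.541 (0.392 to 0.662, 107 pairs) and pairs with 1 IR in a gene 0.493 (0.330 to 0.628, 100 pairs). The intervals of these classes overlap, and the part of distance in them was not tested.

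Differences between neighbours were large against the error of the measurement. The difference between replicates of an IR had a median of 0.25 on the log2 scale and a 95th percentile of 1.37, with a correlation of 0.986 between replicates over 624 IRs. The difference between neighbours exceeded 1.37 in 212 of 335 pairs (63.3%, 95% Wilson interval 58.0 to 68.3), where 79.3% of pairs on different chromosomes did. Among all 381 pairs it did so in 13 of the 32 up to 5 kb apart and in 118 of the 164 from 50 to 100 kb. Between replicates, the differences inside the pairs had a correlation of 0.973 over 335 pairs, so that they came back in both replicates.

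IRs without a cDNA count stood next to each other in 4 pairs (1.19%), against 0.323% of pairs on different chromosomes. In 28 other pairs, 1 IR had no cDNA count and its neighbour had some. Counted per pair, 22.2% of the partners of IRs without a cDNA count had none either, against 5.77% of all 624 IRs.

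Mutation frequency (mutated reads in percent of all reads of an IR) was nearly as different between neighbours as between IRs on different chromosomes. The 624 IRs had a median of 61.0% with sgRNA3 (quartiles 21.4 and 88.5), and a median of 61.5 reads. The intraclass correlation between neighbours was 0.0351 (95% interval -0.0721 to 0.142, 335 pairs). The median difference was 33.2 percentage points (29.4 to 38.4), against 34.3 on different chromosomes. Neighbours differed by over 50 points in 110 pairs (32.8%) and by under 10 points in 68 (20.3%), against 35.2% and 19.8% on different chromosomes.

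The difference in sgRNA3 mutation frequency exceeded counting error in 244 of 335 pairs (72.8%, 95% Wilson interval 67.8 to 77.3), judged by a Newcombe 95% interval that left out 0. Among pairs on different chromosomes 73.7% did. For a share of 0, the upper limit given is 3 counts of the reads. This rule gives lower limits here than the Wilson interval, except for 0 of 5 reads, where it gives 60% against 43.4%. These intervals and limits cover counting error only and take each read as a molecule. How the unique identifiers (UIDs) of the libraries entered the counts is not stated, and where reads copy the same molecule the intervals are too narrow. The share among neighbours was that of the reference, so that a shared place did not go with fewer differences.

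Nearness did not raise likeness in mutation either. Among all 381 pairs, up to 5 kb apart the intraclass correlation was -0.0892 (95% interval -0.417 to 0.259, 32 pairs) with a median difference of 36.3 points. From 5 to 20 kb it was 0.103 (-0.126 to 0.322), from 20 to 50 kb 0.0613 (-0.125 to 0.244), and from 50 to 100 kb -0.0212 (-0.173 to 0.132). Counting error was exceeded in 22 of these 32 pairs up to 5 kb apart and in 126 of the 164 pairs from 50 to 100 kb. At the distances where expression was most alike, mutation frequency differed as much as elsewhere.

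By promoter, pairs with the same promoter had an intraclass correlation in sgRNA3 mutation of 0.195 (95% interval -0.0339 to 0.405, 73 pairs) and a median difference of 27.9 points. Different promoters gave -0.0101 (-0.131 to 0.111, 262 pairs) and 35.0 points. Among all 381 pairs, 21 with the same promoter from 20 to 50 kb apart had 0.525 (0.139 to 0.773), and up to 5 kb 12 such pairs had -0.523 (-0.829 to 0.0248). On different chromosomes the median difference with the same promoter was 34.7 points. The values for the same promoter thus changed sign between distance classes of 12 to 21 pairs.

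The minimum of reads moved the difference in mutation. With 100 reads or more for both IRs, a minimum used as an alternative, 36 pairs had a median difference of 7.80 points (95% interval 4.29 to 22.8) and an intraclass correlation of 0.251 (-0.0771 to 0.530). On different chromosomes the same minimum gave 15.5 points. Of the 624 IRs 219 passed it, and their median mutation frequency was 88.5%. With 30 reads or more, 172 pairs had a median difference of 29.4 points, against 31.0 on different chromosomes. With sgRNA3 mutation frequency thus rose with the minimum of reads, and its part in the smaller difference was not tested.

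In the other assays mutation frequency did not rise in this way. With sgRNA2 the median was 16.0% at 10 reads or more, 14.8% at 30 and 1.95% at 100, and with sgRNA2+ssODN 24.2%, 26.5% and 14.0%. With 100 reads or more for both IRs, the median difference between neighbours was 20.3 points with sgRNA2 (95% interval 1.43 to 75.2, 15 pairs) and 20.3 points with sgRNA2+ssODN (6.33 to 53.1, 40 pairs), against 27.5 and 30.6 on different chromosomes. The intraclass correlation was -0.0863 (-0.551 to 0.419) and 0.0897 (-0.222 to 0.385), so that all 3 intervals at this minimum hold 0.

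With 10 reads or more, neighbours were no more alike with sgRNA2 than with sgRNA3. The median mutation frequency was 16.0% over 525 IRs, the intraclass correlation between neighbours -0.0164 (95% interval -0.143 to 0.111, 236 pairs) and the median difference 21.6 points, against 24.4 on different chromosomes. Counting error was exceeded in 149 of 236 pairs (63.1%), where the share on different chromosomes was 64.4%. With sgRNA2+ssODN the median was 24.2% over 547 IRs, the intraclass correlation -0.0354 (-0.156 to 0.0862, 260 pairs) and the median difference 29.7 points, against 28.8. Here 183 of 260 pairs exceeded counting error (70.4%), and 70.8% on different chromosomes. In the additional experiments 1 to 4 the intraclass correlation was -0.00126, -0.0226, -0.0537 and -0.0506.

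The mutation frequency of an IR came back from assay to assay, and with it the difference inside a pair. Over single IRs the correlation was 0.817 between sgRNA3 and sgRNA2 (525 IRs), 0.859 between sgRNA3 and sgRNA2+ssODN (547 IRs) and 0.875 between sgRNA2 and sgRNA2+ssODN (501 IRs). Over 236 pairs the differences with sgRNA3 and sgRNA2 had a correlation of 0.821, and over 260 pairs those with sgRNA3 and sgRNA2+ssODN 0.860. Between sgRNA2 and sgRNA2+ssODN it was 0.885 over 215 pairs. For differences between IRs on different chromosomes the correlations were 0.817, 0.858 and 0.875, close to those of neighbours and of single IRs. Of the 215 pairs measured in all 3 assays, the difference exceeded counting error in all 3 in 116 (54.0%), against 54.2% on different chromosomes. It had 1 direction in 114 of the 116 (98.3%), against 99.4% on different chromosomes. The pairs share the pool and its clones across the assays, so these are not independent experiments. Neighbours were thus like any pair of these IRs in this.

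**Figure D4:**
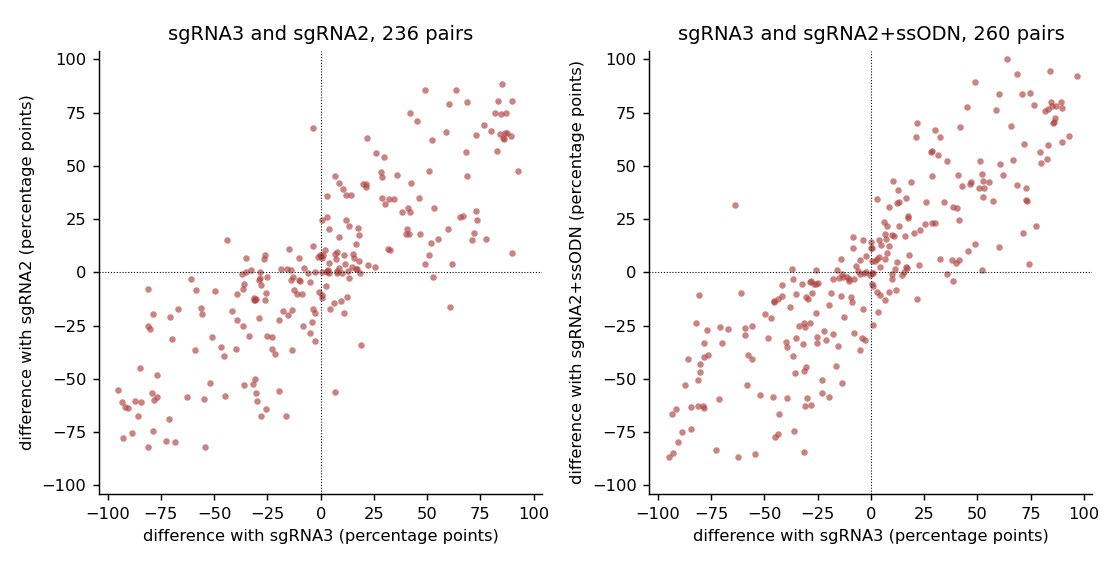
Difference in mutation frequency inside nearest-neighbour pairs with sgRNA3 (horizontal axis) against the difference in the same pairs with sgRNA2 (left, 236 pairs) and sgRNA2+ssODN (right, 260 pairs), in percentage points. The difference is the IR at the higher position minus the IR at the lower position, and each point is a pair. Points lie along the rising diagonal, with correlations of 0.821 and 0.860.

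The plot of differences in both assays shows most pairs in the quadrants where the sign is kept, at small and at large differences.

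Expression did not order the neighbours by mutation. Over 335 pairs the difference in expression and the difference in sgRNA3 mutation had a correlation of 0.108, and 0.0723 over pairs on different chromosomes. In 149 pairs both differences exceeded their error, and the more expressed IR was the more mutated in 84 of them (56.4%, 95% Wilson interval 48.4 to 64.1), against 53.5% on different chromosomes. With sgRNA2 it was 43 of 85 pairs (50.6%), against 50.5% on different chromosomes, and with sgRNA2+ssODN 54 of 107 (50.5%), against 53.6%. The shares did not depart from equal numbers beyond counting error.

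Insertions with sgRNA3 made up a median of 23.5% of reads over the 624 IRs. The intraclass correlation between neighbours was -0.0133 (95% interval -0.120 to 0.0937) and the median difference 14.0 points (12.6 to 15.9), against 15.2 on different chromosomes. With 100 reads or more for both IRs, 36 pairs had 0.299 (-0.0250 to 0.566) and 9.08 points, against 9.80 on different chromosomes. The values that follow are for 10 reads or more. Counting error was exceeded in 158 of 335 pairs (47.2%), where 48.4% of pairs on different chromosomes did so. Among all 381 pairs it was exceeded in 14 of the 32 up to 5 kb apart (43.8%, 95% Wilson interval 28.2 to 60.7) and in 27 of the 74 from 5 to 20 kb (36.5%, 26.4 to 47.9). From 20 to 50 kb it was exceeded in 57 of 111 pairs (51.4%, 42.2 to 60.4) and from 50 to 100 kb in 93 of 164 (56.7%, 49.1 to 64.1). The sgRNA3 share from 5 to 20 kb lay below the reference and that from 50 to 100 kb above it. The interval of the intraclass correlation held 0 at each distance. With sgRNA2+ssODN the order was the other way, with 28.6%, 26.3%, 26.2% and 18.5% from the nearest to the farthest class. Its share from 50 to 100 kb (24 of 130 pairs, 12.7 to 26.0) lay below the 26.5% on different chromosomes. With sgRNA2 the shares were 19.0%, 11.8%, 15.6% and 17.2%, against 17.3%.

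By promoter, sgRNA3 insertion frequency had an intraclass correlation of 0.280 (95% interval 0.0560 to 0.477) in the 73 pairs with the same promoter and -0.102 (-0.220 to 0.0188) in the 262 pairs with different promoters. The median differences were 11.1 and 15.1 points. Among all 381 pairs, those with the same promoter had 0.0767 up to 5 kb (12 pairs), 0.297 from 5 to 20 kb (12 pairs), 0.604 from 20 to 50 kb (0.251 to 0.816, 21 pairs) and 0.151 from 50 to 100 kb (34 pairs). Log2 reads with sgRNA3 had 0.0726 in pairs with the same promoter and -0.0852 in those with different promoters, and the part of depth was not tested. Counting error was exceeded in 29 of 73 pairs with the same promoter and in 129 of 262 with different promoters.

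In the other assays the interval for insertion with the same promoter held 0. With sgRNA2 the intraclass correlation in pairs with the same promoter was -0.00885 (95% interval -0.272 to 0.256, 54 pairs) and with sgRNA2+ssODN 0.0828 (-0.185 to 0.339, 54 pairs). In the additional experiments 1 to 4 it was -0.0450, 0.0363, 0.0124 and 0.0644. With sgRNA2 counting error was exceeded in 8 of 54 pairs with the same promoter and in 30 of 182 with different promoters. With sgRNA2+ssODN the order was the other way, with 18 of 54 pairs (33.3%, 95% Wilson interval 22.2 to 46.6) and 46 of 206 (22.3%, 17.2 to 28.5).

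With the other guide insertions were rarer. Their difference exceeded counting error in 38 of 236 pairs with sgRNA2 (16.1%), against 17.3% on different chromosomes. With sgRNA2+ssODN it was 64 of 260 pairs (24.6%), against 26.5%. Deletions with sgRNA3 had an intraclass correlation of 0.0492 (95% interval -0.0580 to 0.155) and a median difference of 22.1 points, against 23.7 on different chromosomes. By orientation, deletions had 0.183 (0.0368 to 0.321) in 177 pairs with the same orientation and -0.0941 (-0.246 to 0.0622) in 158 with opposite orientation. In the additional experiments 1 to 4 deletions had 0.0594, -0.0245, -0.0628 and -0.0219 between nearest neighbours. Among all pairs up to 5 kb apart they had -0.0341, -0.601 (-0.794 to -0.297, 27 pairs), -0.158 and -0.150. Nearest neighbours with the same promoter had 0.274 (0.0490 to 0.472, 73 pairs), -0.0173, 0.0549 and 0.0702. The other intervals of these additional experiments held 0.

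Knock-in reads were rare at the IRs with a neighbour. With 30 reads or more in the sgRNA2+ssODN assay, 427 IRs had a mean knock-in frequency of 1.50%, and 149 of them had a knock-in read. Between neighbours the intraclass correlation was 0.105 (95% interval -0.0525 to 0.258, 155 pairs) and the median difference 1.04 points, against 0.952 on different chromosomes. The difference exceeded counting error in 27 of 155 pairs (17.4%, 95% Wilson interval 12.3 to 24.2), where 21.7% of pairs on different chromosomes did.

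Both neighbours had a knock-in read in 21 pairs (13.5%), 1 of them in 72 (46.5%) and neither in 62. On different chromosomes the shares with a knock-in read at both and at 1 were 12.1% and 45.5%. By promoter the intraclass correlation was 0.0913 (95% interval -0.238 to 0.401) in 36 pairs with the same and 0.108 (-0.0724 to 0.281) in 119 with different promoters. By distance, over all 179 pairs with 30 reads or more up to 100 kb apart, it was 0.172 up to 5 kb (15 pairs), 0.0892 from 5 to 20 kb (31 pairs), 0.00383 from 20 to 50 kb (52 pairs) and 0.137 from 50 to 100 kb (81 pairs). These values lie around 0 or have few pairs behind them.

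In the additional experiments 1 to 4 the intraclass correlation in knock-in between nearest neighbours was -0.0340 (267 pairs), -0.00189 (184 pairs), 0.0455 (202 pairs) and 0.0391 (189 pairs). Among all pairs up to 5 kb apart it was 0.177 (95% interval -0.230 to 0.532, 24 pairs) in experiment 1 and -0.120 (-0.562 to 0.375, 16 pairs) in experiment 2. At this distance it was 0.512 (0.0503 to 0.793, 16 pairs) in experiment 3 and 0.577 (0.143 to 0.825, 16 pairs) in experiment 4. The intervals left out 0 in 2 experiments, and all 4 overlap. The median difference of these pairs was 0 points in experiment 3, as on different chromosomes, and 1.16 points in experiment 4 (0 to 4.35), against 0.234 on different chromosomes.

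IRs alike in abundance were set beside the neighbours. Abundance was taken as the log2 reads in the 4 additional experiments, after Cas9 with sgRNA2 and the ssODN, at 185 of the 624 IRs with 100 reads or more in each, and each was paired with the most alike of these IRs on another chromosome. This comparison was chosen with earlier results on abundance groups known. In these 136 pairs the intraclass correlation was 0.947 for sgRNA3 mutation (95% interval 0.927 to 0.962), with a median difference of 2.96 points. It was 0.891 for sgRNA2 mutation, 0.929 for sgRNA2+ssODN mutation, 0.817 for sgRNA3 insertion and 0.618 for knock-in. For expression it was 0.00297 (-0.165 to 0.170), with a median difference of 3.39. These reads were taken after Cas9, and median mutation frequency changed with the minimum of reads in each assay, upwards with sgRNA3 and to lower values at 100 reads with sgRNA2 and sgRNA2+ssODN. IRs matched in abundance may therefore be matched in mutation by the choice itself, and nothing on neighbours is drawn from the likeness in mutation of these pairs.

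Only 27 nearest-neighbour pairs had such abundance values for both IRs, and in 0 of them did the values lie within 0.3 of each other on the log2 scale (root mean square), against 2.82% of pairs on different chromosomes. In these 27 pairs the intraclass correlation was 0.395 for sgRNA3 mutation (95% interval 0.0302 to 0.668) and 0.511 for expression (0.175 to 0.741). It was 0.193 for sgRNA2 mutation (-0.190 to 0.525), 0.225 for sgRNA2+ssODN mutation (-0.158 to 0.549), 0.347 for sgRNA3 insertion (-0.0262 to 0.635) and 0.0249 for knock-in (-0.348 to 0.391). The interval thus left out 0 for expression and for sgRNA3 mutation only. The gDNA counts, taken before Cas9, had 0.868 in the 136 pairs alike in abundance. The clone of an IR is not recorded, and its part in mutation frequency was not tested here.

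**Figure D5:**
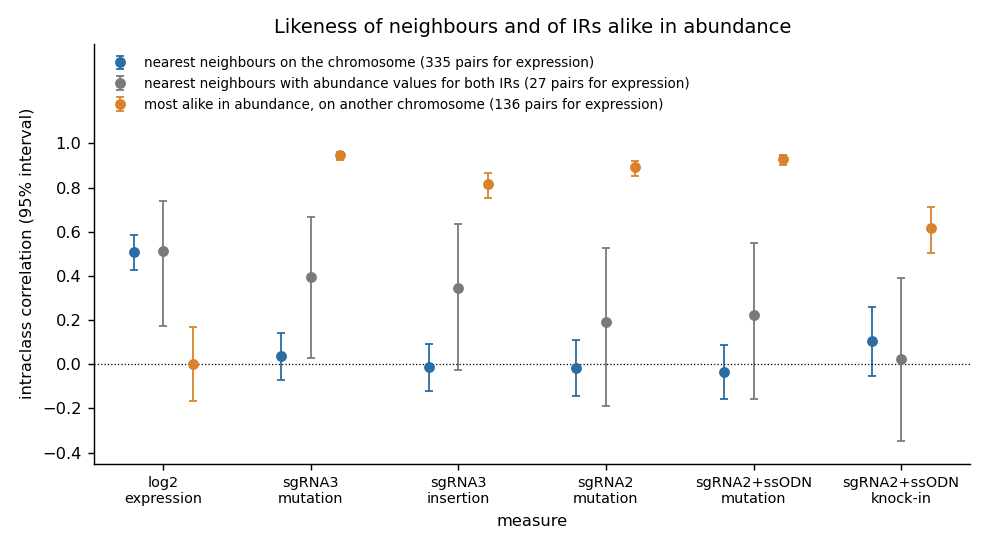
Intraclass correlation of 6 measures in nearest-neighbour pairs (blue), in the 27 nearest-neighbour pairs with abundance values for both IRs (grey) and in 136 pairs of IRs most alike in abundance on different chromosomes (orange). Bars are 95% intervals over pairs, and the dotted line marks 0. Abundance was read after Cas9. Expression has 0.509 in neighbours and 0.00297 in pairs alike in abundance, and sgRNA3 mutation has 0.0351 in all neighbours, 0.395 in the 27 pairs and 0.947 in pairs alike in abundance.

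The plot of neighbours and pairs alike in abundance puts the orange points near the top for the mutation measures and at 0 for expression. The grey intervals are wide, as they rest on 27 pairs.

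The nearest pair of all lay 48 bp apart in an intron of Ric8b, a chaperone and exchange factor of G protein alpha subunits. Its Nanog IR at position 84427971 had a log2 expression of -1.75 and -2.09 in replicates 1 and 2, and its CMV IR at 84428019 -1.17 and -1.19. With sgRNA3 the Nanog IR was mutated in 80.9% of 47 reads (95% Wilson interval 67.5 to 89.6) and the CMV IR in 0 of 18 reads, which allows a share of up to 16.7%. With sgRNA2 it was 25.0% of 20 reads against 0 of 48, which allows up to 6.25%. With sgRNA2+ssODN it was 15.6% of 32 reads (6.86 to 31.8) against 4.88% of 41 reads (1.35 to 16.1). Expression within this pair was close, and mutation lay apart with sgRNA3 and with sgRNA2, while the intervals with sgRNA2+ssODN overlap.

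Pair 2 was made of Nanog IRs 60 bp apart in the same orientation, outside genes on chromosome 6. The IR at 100334516 had an expression of 2.60 and 2.79 in the replicates, and the IR at 100334576 2.66 and 2.97. Their sgRNA3 mutation frequencies were 42.3% of 26 reads (25.5 to 61.1) and 90.7% of 215 reads (86.1 to 93.9). With promoter, orientation and place shared, expression differed by 0.11 and mutation by 48.4 points.

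Pair 3 lay 100 bp apart in an intron of Grik3, a kainate-type glutamate receptor subunit. Its Hoxb1 IR at 125287268 had an expression of 2.84 and 2.79 and its Oct4 IR at 125287368 3.32 and 3.37. The Hoxb1 IR was mutated in 61.0% of 136 reads (52.6 to 68.8) with sgRNA3 and the Oct4 IR in 0 of 48, which allows up to 6.25%. With sgRNA2 the shares were 3.57% of 56 reads (0.985 to 12.1) and 0.592% of 169 reads (0.105 to 3.28), and with sgRNA2+ssODN 10.3% of 97 reads and 0.410% of 244 reads. In all 3 nearest pairs, expression was within 0.76 and sgRNA3 mutation apart by 48.4 points or more. The other pairs less than 1000 bp apart did not all follow this. At 219, 309, 447, 473 and 700 bp sgRNA3 mutation differed by 25.5, 30.1, 23.2, 9.33 and 12.9 points. At 712 and 880 bp it differed by 55.2 and 81.1 points. Expression in these other pairs differed by 0.33 to 1.76.

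Among pairs with 100 reads or more for both IRs in all 3 assays there were 4. The largest difference with sgRNA3 was that of the pair on chromosome 3 shown above, outside genes and 32894 bp apart. Its Hoxb1 IR was mutated in 96.3% of 1202 reads and its Nanog IR in 7.75% of 142 reads. With sgRNA2 the shares were 75.7% of 222 reads and 0.456% of 1316 reads, and with sgRNA2+ssODN 75.4% and 0.473%. Expression went the other way, with -3.24 for the Hoxb1 IR and 2.16 for the Nanog IR.

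The other 3 pairs differed by 5.91 points or less with sgRNA3. In introns of Farp1, which encodes a FERM-domain protein, Hoxb1 IRs 33440 bp apart were mutated in 94.3% of 2581 reads at 121633991 and 98.2% of 3263 reads at 121667431. With sgRNA2 they lay farther apart, with 65.5% of 284 reads (59.8 to 70.8) and 85.8% of 401 reads (82.0 to 88.9). With sgRNA2+ssODN it was 68.8% of 985 reads (65.9 to 71.6) and 83.9% of 833 reads (81.3 to 86.3). The knock-in frequencies of these IRs were 6.09% and 13.7%, and their expression -4.51 and 0.07, so that both were highly mutated at unequal expression.

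On chromosome 12, a CMV IR outside genes at 25483763 was mutated in 11.4% of 9113 reads, and a p53 IR 44159 bp away in an intron of Mboat2, a lysophospholipid acyltransferase, in 5.50% of 109. This pair was the most unequal in depth, with 120684 and 921 reads with sgRNA2. On chromosome 7, a PGK IR at 88591095 in an intron of Cpeb1, which binds cytoplasmic polyadenylation elements in mRNA, was mutated in 5.14% of 370 reads. Its Hoxb1 neighbour 70328 bp away was mutated in 2.67% of 187 reads, and the mapped ends of both IRs lay apart. No IR of these pairs was mutated in more than 11.4% of reads with sgRNA3.

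Among 64 pairs with the same promoter and 100 gDNA counts or more for both IRs in each replicate, the closest in expression were Hoxb1 IRs 71411 bp apart on chromosome 5. The IR outside genes at 115617204 had 0.82 and the IR in an intron of Pop5, a subunit of RNase P, 0.88. Next came pair 2 and then PGK IRs 14277 bp apart on chromosome 4, with 3.59 for the IR outside genes at 108897027 and 3.72 for the IR in an intron of Calr4. These pairs lay within 0.13 of each other at distances from 60 to 71411 bp.

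The largest differences in expression with the same promoter were between Hoxb1 IRs. On chromosome 14, 13476 bp apart and outside genes, the IR at 27385226 had 3 cDNA counts in each replicate and an expression of -7.43. The IR at 27398702 had 991 and 1137 cDNA counts and an expression of 2.28, and lay 362 bp from a transcription start site. The log2 ratio between them had a 95% counting interval of 8.93 to 11.50. With sgRNA3 the first was mutated in 0 of 21 reads, which allows up to 14.3%, and the second in 74.3% of 35 reads. With sgRNA2 it was 0.862% of 116 reads against 0 of 5, which allows up to 60%. With sgRNA2+ssODN it was 0.562% of 178 reads (0.0992 to 3.11) against 4.55% of 22 reads (0.807 to 21.8), and these intervals overlap.

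On chromosome 7, 39568 bp apart and outside genes, the Hoxb1 IR at 6069014 had 1 cDNA count in each replicate and an expression of -7.39. Its neighbour at 6108582 had 970 and 1042 cDNA counts and an expression of 1.18, and the counting interval of the log2 ratio was 7.58 to 12.48. Here both IRs were highly mutated with sgRNA3, in 79.7% of 79 reads and 96.9% of 196 reads.

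In introns of Ntm, a neural cell adhesion molecule, Hoxb1 IRs lay 89865 bp apart on chromosome 9. The IR at 29130707 had 0 cDNA counts in both replicates at 1829 and 1994 gDNA counts, and the IR at 29220572 58 and 44 cDNA counts. The second was higher by at least 5.81 on the log2 scale, the lower 95% counting limit of the ratio. Their sgRNA3 mutation frequencies were 93.7% of 588 reads and 96.7% of 814 reads, with sgRNA2 42.9% of 49 reads and 78.5% of 93 reads, and with sgRNA2+ssODN 83.8% of 105 reads and 74.7% of 170 reads. The intervals with sgRNA2+ssODN overlap (75.6 to 89.6 and 67.7 to 80.6). The reporter without a cDNA count was thus mutated in all 3 assays.

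Of the 5 clusters with 5 IRs, the first 3 by position are described. On chromosome 6, 5 IRs spanned 121256 bp from 122574361 to 122695617, the last of them in an intron of Slc2a3, the glucose transporter GLUT3. Their expression ran from -3.77 for a Hoxb1 IR to 4.22 for a Nanog IR, and their sgRNA3 mutation frequency from 14.7% of 34 reads to 99.4% of 173 reads. Values rose and fell within the cluster without a shared level in either measure.

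On chromosome 8, 5 IRs outside genes spanned 74411 bp from 91474933 to 91549344. All 5 were expressed, from 2.18 to 5.23, although 3 promoters were among them (CMV, cMyc and Hoxb1). Their sgRNA3 mutation frequency ran from 12.5% of 16 reads to 95.9% of 1427 reads, and both of these belonged to Hoxb1 IRs next to each other at 91547601 and 91549344. The same IRs had the lowest and the highest expression of the 5, 3.05 apart. The mapped ends lay apart at 2 of the 5 IRs. All 5 lay above the upper quartile of expression of the 624 IRs, and neither expression nor mutation was uniform.

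On chromosome 14, 5 IRs spanned 131178 bp from 22302745 to 22433923, the last 2 in introns of Myst4, a histone acetyltransferase. The 3 IRs outside the gene (Hoxb1, Nanog and Nanog) had an expression of 4.37, 3.32 and 4.45, and the IRs in the gene (Oct4 and CMV) -0.32 and -1.94. With sgRNA3 the 3 IRs outside were mutated in 43.6% of 94 reads, 59.5% of 37 and 9.84% of 61, and those in the gene in 95.3% of 2148 reads and 2.04% of 49. The IRs in the gene were the less expressed, but they also had other promoters, so that gene and promoter cannot be told apart here.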

How the data were processed

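Reporter expression was measured in 2 cDNA and 2 gDNA replicates, and mutations in 12 libraries per assay that are merged in a table. For the pool, the authors deposited counts of reads per barcode and lesion class, called after alignment to the reporter, without normalization. They also deposited counts of barcodes in cDNA and gDNA. The log2 expression value that the authors deposited in the lesion tables was used as an alternative only. IRs were mapped by the authors on mm9 (Bowtie2 2.0). The columns mval and qmval, 2 in each lesion file, were not used, since their meaning is not given.

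For each IR the entry with most reads was taken. Mutation and insertion needed 10 reads or more, knock-in 30 and expression 10 gDNA counts in each replicate. Libraries were scaled to the mean total and averaged before 1 count was added. In this value the replicate numbers of cDNA and gDNA were not paired. Expression per replicate, and the differences between replicates, took cDNA and gDNA of the same replicate number. Pairs were compared by the intraclass correlation with a Fisher z interval, by the median difference with an order-statistic interval, and by Newcombe intervals, all at 95%. The statistics were tested on simulated data. Python 3.11.15 with numpy 2.4.6, pandas 2.3.3, scipy 1.17.1 and matplotlib 3.10.9 was used.

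The pairs named were the 3 nearest, those in the 3 largest clusters (ties by position), the 3 with the smallest and the 3 with the largest difference in sgRNA3 mutation (100 reads or more for both IRs in all 3 assays), and the same for expression with the same promoter (100 gDNA counts or more in each replicate). Since only 4 pairs had 100 reads in all assays, both mutation lists overlap. The members and lists were chosen with earlier results of these data known. The cell line with a single set of IRs was not analysed here.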

Additional observations from a re-analysis of the deposited data

How the results depend on the processing

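Each of the 7 results was recomputed under 86 alternatives in all, and in 81 it stayed within the 95% interval of the value reported. Of these 81, 7 left out pairs with barcodes within 2 edits, of which there were 0, and could not move. The 5 others came from the minimum of reads. With 30 reads or more the median neighbour difference in sgRNA3 mutation was 29.4 points and with 100 reads or more 7.80 points, and with 100 reads or more that in insertion was 9.08 points and the intraclass correlation of mutation 0.251. With 10 reads or more the median difference in knock-in was 0. The cause was not tested.

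Likeness in expression ran from 0.440 to 0.579 over its 18 alternatives, among them pseudocounts, promoter means subtracted and pairs with gDNA counts within 2-fold or beyond. Without a replicate it was 0.502 to 0.508, and the median difference in expression was 2.13 to 2.26. With the ratio taken in each replicate block before averaging, these were 0.509 and 2.16. The deviations of cDNA and gDNA between replicates had a correlation of -0.0316 over 624 IRs and 0.0707 over the 311 with 100 counts or more in each library, so that the pairing of replicate numbers carried little. Chosen after seeing the data were IRs with both ends mapped within 5 kb, IRs at TTAA, and IRs with a cDNA count, for which likeness in expression was 0.440. Depth limits what single pairs show, with a median of 61.5 reads per IR with sgRNA3.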
